A study of Mus musculus with 9 samples.

Results

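The 19S lid is the part of the 26S proteasome that holds the deubiquitinase through which substrates lose their ubiquitin chains before degradation. Its genes were taken as the rows of the expression tables whose symbol was *Psmd3*, *Psmd6*, *Psmd7*, *Psmd8*, *Psmd11*, *Psmd12*, *Psmd13*, *Psmd14* or *Shfm1*. All 9 were found in each of the 3 tables, among 15144 genes with a symbol of their own in any table. Their transcripts were followed in neonatal rat ventricular myocytes (NRVMs) that overexpressed 1 of 2 stress-responsive transcription factors.

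NRVMs came from Sprague-Dawley rats 1 or 2 days old and were cultured for 48 h before infection. Every culture received an adenovirus at a multiplicity of infection of 50, and RNA was collected 48 h later. The virus carried lacZ, a bacterial enzyme serving as the control, Nrf1 or mouse Nrf2, each cloned behind a CMV promoter in a vector that also encodes a red fluorescent protein, with 3 libraries per group. For Nrf1 the methods list a mouse and a human coding region, and the labels do not say which one these libraries received. The labels call the organism mouse, whereas the strain, the culture protocol and the alignment to Rnor 6.0 are those of rat. Neither the labels nor the methods say that the libraries of a group came from separate cultures, so p-values measure the spread between these libraries, which may be technical.

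The 26S proteasome degrades ubiquitinated proteins in a barrel, the 20S core, closed by a 19S regulatory particle. The particle has a base, whose ATPases unfold substrates and thread them into the core, and a lid that sits against the base. Most lid subunits carry a PCI domain, a helical fold by which they assemble into a horseshoe, and a pair carries an MPN domain, found in a class of metalloproteases. In cardiomyocytes, which are long-lived and rarely divide, the proteasome clears damaged contractile and oxidized proteins.

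The tables list the mean of normalized reads of each group and not the libraries. Because the same libraries entered 2 tables with different scaling, the reads of every library could be solved for as whole numbers, with a single solution for 14442 of 14443 genes present in all 3 tables. The recovered libraries held 7874370 to 9347096 reads in the LacZ group, 8533142 to 10274928 in the Nrf1 group and 10149164 to 11905027 in the Nrf2 group. They carry no replicate numbers and are listed below from the deepest to the shallowest of their group. Lid genes had 770 to 4623 reads per library, and their coefficient of variation within a group was 0.475% to 6.90%, with a median of 2.92%. Values per library are given as normalized reads, which are recovered reads divided by median-of-ratios size factors over all 9 libraries. Ratios between groups are those of the authors' group means, with the standard error (SE) and Benjamini-Hochberg adjusted p of limma on the recovered reads.

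The cells were checked against markers. Cardiac troponin T, *Tnnt2*, had an authors' mean of 32049 with LacZ and 27626 with Nrf1 in their table, and 34221 with LacZ and 39682 with Nrf2 in theirs. Cardiomyocyte markers did not move together. Their log2 ratios ran from -1.07 for *Myh7* to 0.83 for *Ryr2* with Nrf1 and from -0.26 for *Myh7* to 0.43 for *Ryr2* with Nrf2. All 9 cardiomyocyte markers analysed were well above 0, the lowest being *Tnni3* with 3379 normalized reads on average. Fibroblast markers were also abundant. The summed normalized reads of 9 of them, led by *Col1a1*, were 122641, 128569 and 123692 in the LacZ libraries, 32268, 33651 and 31242 in the Nrf1 libraries and 69056, 63904 and 66562 in the Nrf2 libraries. The size of the difference between Nrf1 and Nrf2 in these sums depended on leaving out *Fn1*, the marker with the highest LacZ mean, whose reads per library had no single solution with LacZ. The authors' mean of *Fn1* was 95891 with LacZ and 72502 with Nrf1 in their table, and 102400 with LacZ and 45705 with Nrf2 in theirs. With *Fn1* included, the summed authors' means of all 10 markers were 213594 with LacZ and 102955 with Nrf1, 228100 with LacZ and 112638 with Nrf2, and 114863 with Nrf1 and 117044 with Nrf2, each pair in its own table. Without *Fn1* the sums in the last table were 33975 with Nrf1 and 69551 with Nrf2, so the order was the same and the gap was wider. Both factors were below LacZ in either case. Most of the sum of 9 was *Col1a1*, at 24039 of 32387 normalized reads on average with Nrf1 and 49693 of 66507 with Nrf2. Of the 9, 8 were higher and 1 lower with Nrf2 than with Nrf1 at an adjusted p under 0.05. Over all genes tested these shares were 28.6% and 30.2%. The lower marker was *Tcf21*, with a log2 ratio of -0.92 (limma adjusted p = 0.00236). No fibroblast marker was at 0. In bulk RNA, fewer cells of a type and less RNA per cell cannot be told apart.

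Overexpression was visible for Nrf2. *Nfe2l2*, the gene of Nrf2, had 3472, 3399 and 3493 normalized reads in the LacZ libraries and 78772, 77443 and 67555 in the Nrf2 libraries. The log2 ratio was 4.43 (SE 0.05, limma adjusted p = 5.96e-17), counted on the rat gene although the virus carried the mouse coding region. With Nrf1 *Nfe2l2* fell by 0.28 on the log2 scale (SE 0.03, limma adjusted p = 3.52e-06). The gene of Nrf1 was not analysed here.

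Lid transcripts as a whole were compared first, as a share of all recovered reads. The 9 genes took 0.154%, 0.153% and 0.153% of reads in the LacZ libraries, 0.302%, 0.299% and 0.301% in the Nrf1 libraries and 0.194%, 0.194% and 0.194% in the Nrf2 libraries. The 3 groups were far apart compared with the spread inside each, with group means of 0.153% ± 0.00057, 0.301% ± 0.0012 and 0.194% ± 0.00046 (SD, n = 3). The lid was highest with Nrf1, intermediate with Nrf2 and lowest with LacZ.

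**Figure D1:**
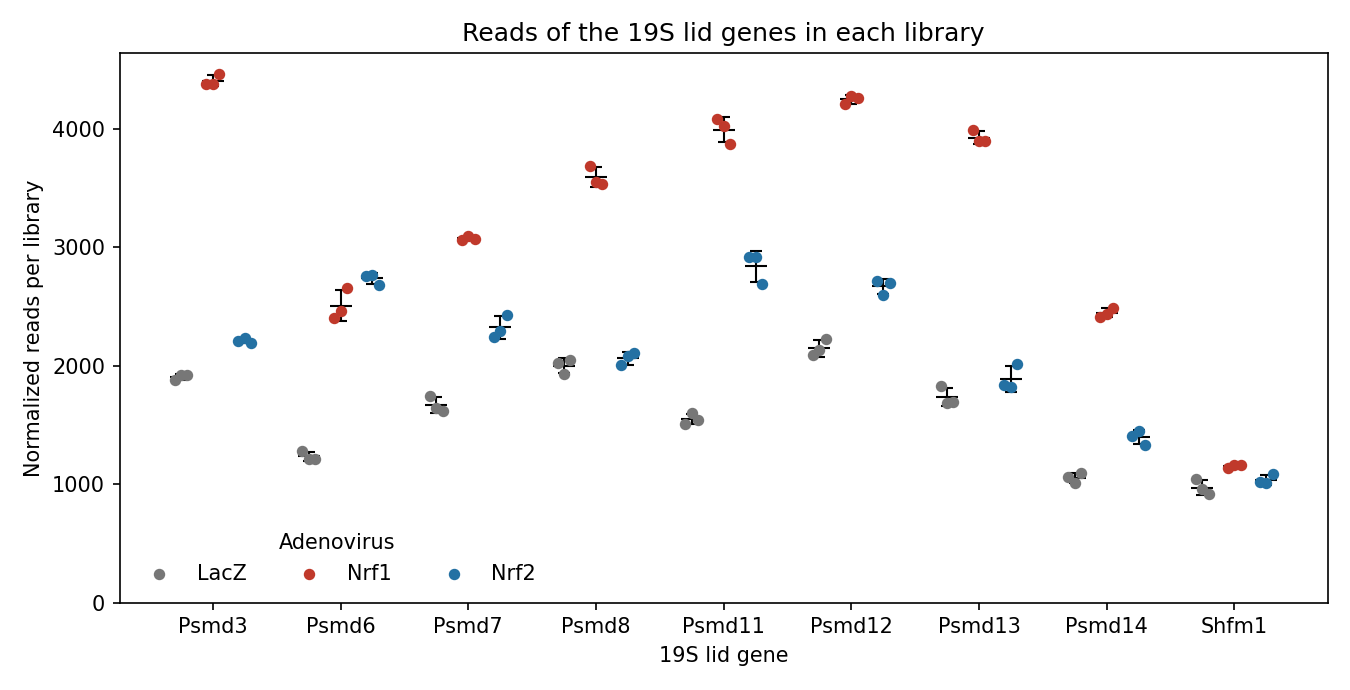
Normalized reads of each 19S lid gene in every library of the LacZ, Nrf1 and Nrf2 groups. Points are libraries, horizontal marks are group means and bars are the SD over 3 libraries; Nrf1 libraries are the highest for every gene but *Psmd6*, and *Shfm1* varies least between groups.

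The first question was how each lid subunit responded to Nrf1. Every one of the 9 genes was higher than in the LacZ group at an adjusted p under 0.05, a call made for 34.7% of the 11202 genes tested. By size, 8 of the 9 passed 1.5-fold upwards, against 11.5% of all genes. The median log2 ratio of the lid was 1.02, and that of all genes was 0.01. All 9 genes had Nrf1 libraries above every LacZ library, which held for 36.5% of genes tested.

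*Psmd11* encodes Rpn6, a PCI subunit that braces the lid against the base and core. It had 1509, 1598 and 1544 normalized reads in the LacZ libraries and 4077, 4018 and 3872 in the Nrf1 libraries. The Nrf1 libraries lay well above the LacZ libraries, and the log2 ratio was 1.36 (SE 0.04, limma adjusted p = 1.12e-13), the highest in the lid. *Psmd14* encodes Rpn11, the zinc-dependent deubiquitinase of the lid, with an MPN domain. Its normalized reads were 1056, 1010 and 1094 with LacZ and 2411, 2439 and 2489 with Nrf1. The groups did not overlap, and the log2 ratio was 1.21 (SE 0.04, limma adjusted p = 1.10e-12). The other MPN subunit, the catalytically inactive Rpn8 encoded by *Psmd7*, had 1743, 1646 and 1618 normalized reads with LacZ and 3063, 3090 and 3067 with Nrf1. Its groups were also apart, with a smaller log2 ratio of 0.88 (SE 0.04, limma adjusted p = 1.88e-11).

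Among the remaining PCI subunits the log2 ratios ran from 0.84 for *Psmd8* to 1.21 for *Psmd3*, and *Psmd6*, *Psmd12* and *Psmd13* lay between. *Psmd3* (Rpn3) had 1878, 1918 and 1920 normalized reads with LacZ and 4377, 4376 and 4460 with Nrf1, a gain of 131% in the group mean. *Psmd8* (Rpn12), the subunit whose incorporation completes the lid, had 2020, 1925 and 2046 with LacZ and 3685, 3548 and 3532 with Nrf1, a gain of 79.4%. Each rise was many times the SD of either group.

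*Shfm1* was the exception in size. It encodes Sem1, also called Dss1, a small acidic protein that tethers lid subunits during assembly and is found in other complexes too. It had 1044, 956 and 913 normalized reads in the LacZ libraries and 1133, 1164 and 1165 in the Nrf1 libraries. The lowest Nrf1 library was above the highest LacZ library, but the log2 ratio was 0.25 (SE 0.05, limma adjusted p = 5.12e-04), a gain of 18.6% in the group mean. The SD of the log2 ratios was 0.33 over the 9 genes and 0.18 over the 8 without *Shfm1*.

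The second question was how the lid responded to Nrf2, against the same LacZ libraries. Here 7 of the 9 genes were higher at an adjusted p under 0.05, beside 28.5% of the 11382 genes tested, and 2 passed 1.5-fold, beside 9.14%, or 15.6% with no filter on low values. The median log2 ratio of the lid was 0.31, and that of all genes was 0.00. Nrf2 libraries lay above every LacZ library for 6 of the 9 genes and for 31.6% of genes tested. The ratios differed widely within the lid, from 0.05 to 1.15.

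*Psmd6* encodes Rpn7, a PCI subunit near the deubiquitinase module, and had the highest ratio. Its normalized reads were 1280, 1213 and 1214 with LacZ, 2403, 2460 and 2654 with Nrf1 and 2757, 2766 and 2684 with Nrf2. Every Nrf2 library exceeded every Nrf1 library, narrowly for the highest Nrf1 library, and both groups were far above LacZ. The log2 ratio over LacZ was 1.15 with Nrf2 (SE 0.04, limma adjusted p = 9.98e-12) and 1.02 with Nrf1 (SE 0.04, limma adjusted p = 1.85e-11). *Psmd11* came next with Nrf2, with 2916, 2915 and 2686 normalized reads, all above the LacZ libraries and all below the Nrf1 libraries. Its log2 ratio over LacZ was 0.87 (SE 0.04, limma adjusted p = 6.02e-10).

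Both MPN subunits rose by less than 1.5-fold. *Psmd7* had 2242, 2295 and 2431 normalized reads with Nrf2, a log2 ratio of 0.48 (SE 0.04, limma adjusted p = 4.34e-07). *Psmd14* had 1409, 1449 and 1333, a log2 ratio of 0.41 (SE 0.05, limma adjusted p = 4.77e-06). For each of them the Nrf2 libraries were above all LacZ libraries and below all Nrf1 libraries. *Psmd12* (Rpn5) and *Psmd3* followed, with log2 ratios of 0.31 and 0.21 and no overlap between groups.

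The other 3 genes overlapped between Nrf2 and LacZ. *Psmd13* (Rpn9) had 1834, 1819 and 2014 normalized reads with Nrf2 and 1824, 1686 and 1691 with LacZ. Its log2 ratio of 0.12 (SE 0.05, limma adjusted p = 0.0419) was just under the threshold and lost the call when ratios were centred on the median gene (0.11), with an equal total per library (0.05), and without either of the 2 shallower LacZ libraries or the deepest or shallowest Nrf2 library (0.08 to 0.15). *Psmd8* had 2003, 2077 and 2103 normalized reads with Nrf2 against 2020, 1925 and 2046 with LacZ, and a log2 ratio of 0.05 (SE 0.04, limma adjusted p = 0.343). The ratio of *Psmd8* was 0.02 to 0.07 with a library left out. With the same summed mean in each group it changed sign to -0.030. *Shfm1* had 1014, 1011 and 1085, a log2 ratio of 0.09 (SE 0.05, limma adjusted p = 0.150). Without the deepest LacZ library the ratio of *Shfm1* was 0.15 and passed the test. It was 0.05 to 0.11 with any other library left out, without passing. With the same summed mean in each group it was 0.02.

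**Figure D2:**
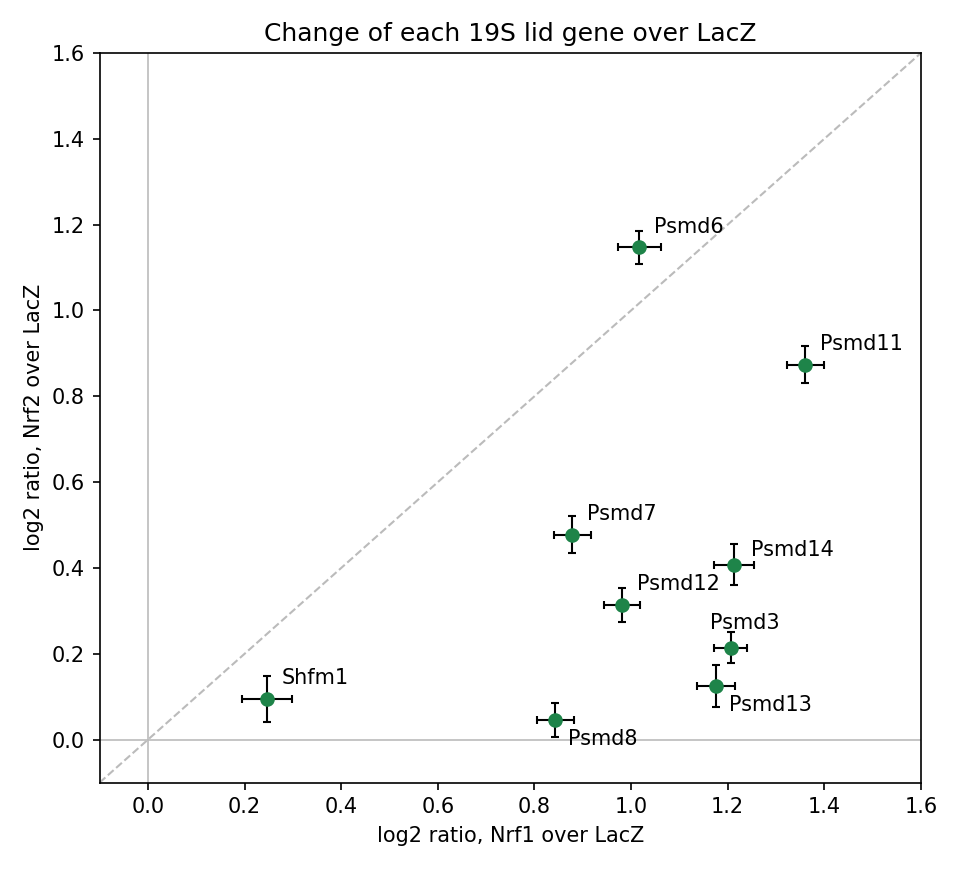
Log2 ratio of the authors' group means for each 19S lid gene, Nrf1 over LacZ on the horizontal axis and Nrf2 over LacZ on the vertical axis, with limma SE as bars and equal ratios on the dashed line. Both axes share the LacZ libraries; *Psmd6* is the gene above the line, at 1.02 and 1.15.

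The factors were then compared directly, in the table of those groups. The test gave 8 lid genes lower with Nrf2 than with Nrf1 at an adjusted p under 0.05, beside 30.2% of the 11302 genes tested, and 1 higher, beside 28.6%. Of the 9, 5 passed 1.5-fold downwards, beside 4.98% of all genes, or 8.72% with no filter on low values, and the Nrf2 libraries were below every Nrf1 library for 8, beside 32.7%. The median log2 ratio was -0.68 in the lid and -0.01 over all genes.

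*Psmd13* differed most between the factors. Its 3986, 3897 and 3892 normalized reads with Nrf1 stood against 1834, 1819 and 2014 with Nrf2, and the group mean fell by 1.06 on the log2 scale (SE 0.04, limma adjusted p = 2.38e-14). *Psmd3* fell by 1.00 (SE 0.03, limma adjusted p = 5.93e-16), with 2204, 2233 and 2193 normalized reads in the Nrf2 libraries. The log2 ratios of *Psmd14*, *Psmd8* and *Psmd12* were -0.81, -0.80 and -0.68, those of *Psmd11* and *Psmd7* were -0.50 and -0.41, and that of *Shfm1* was -0.16. *Psmd6* was the lid gene with the opposite sign, 0.12 higher with Nrf2 (SE 0.03, limma adjusted p = 0.00475), and it kept that sign and call under each scaling and with each library left out.

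Because a comparison between groups depends on scaling, each lid gene was also set against the other 8 inside the same library, as its log2 reads minus their mean log2 reads. On this scale *Psmd6* was at -0.32, -0.36 and -0.37 in the LacZ libraries, -0.38, -0.35 and -0.23 in the Nrf1 libraries and 0.50, 0.50 and 0.44 in the Nrf2 libraries. Relative to the rest of the lid its LacZ and Nrf1 values overlapped, and every Nrf2 library was higher. Its share of all lid reads was 8.66% ± 0.184 with LacZ, 8.54% ± 0.436 with Nrf1 and 14.3% ± 0.278 with Nrf2 (SD, n = 3). *Shfm1* moved the other way on this scale. It was at -0.65, -0.74 and -0.83 with LacZ, -1.60, -1.56 and -1.57 with Nrf1 and -1.12, -1.13 and -1.03 with Nrf2. A gene falls on this scale when the other 8 rise more. Normalized reads of *Shfm1* itself were 913 to 1044 with LacZ, 1133 to 1165 with Nrf1 and 1011 to 1085 with Nrf2. Its share of lid reads was 6.81% ± 0.417, 3.93% ± 0.0623 and 5.41% ± 0.201 in these groups, with no overlap. These relative values were described and not tested.

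The other lid genes differed in how far they moved on this scale. *Psmd12* moved little, at 0.55 ± 0.07, 0.54 ± 0.01 and 0.44 ± 0.04 with LacZ, Nrf1 and Nrf2 (SD, n = 3). *Psmd11* stood higher in the Nrf1 and Nrf2 libraries than in LacZ, at 0.44 ± 0.05 and 0.54 ± 0.09 against 0.02 ± 0.07. *Psmd8* stood at 0.43 ± 0.04 with LacZ, 0.26 ± 0.04 with Nrf1 and 0.02 ± 0.03 with Nrf2, with no overlap between groups. *Psmd13* was higher relative to the lid with Nrf1 and lower with Nrf2, going from 0.20 ± 0.05 to 0.41 ± 0.03 and -0.12 ± 0.08.

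**Figure D3:**
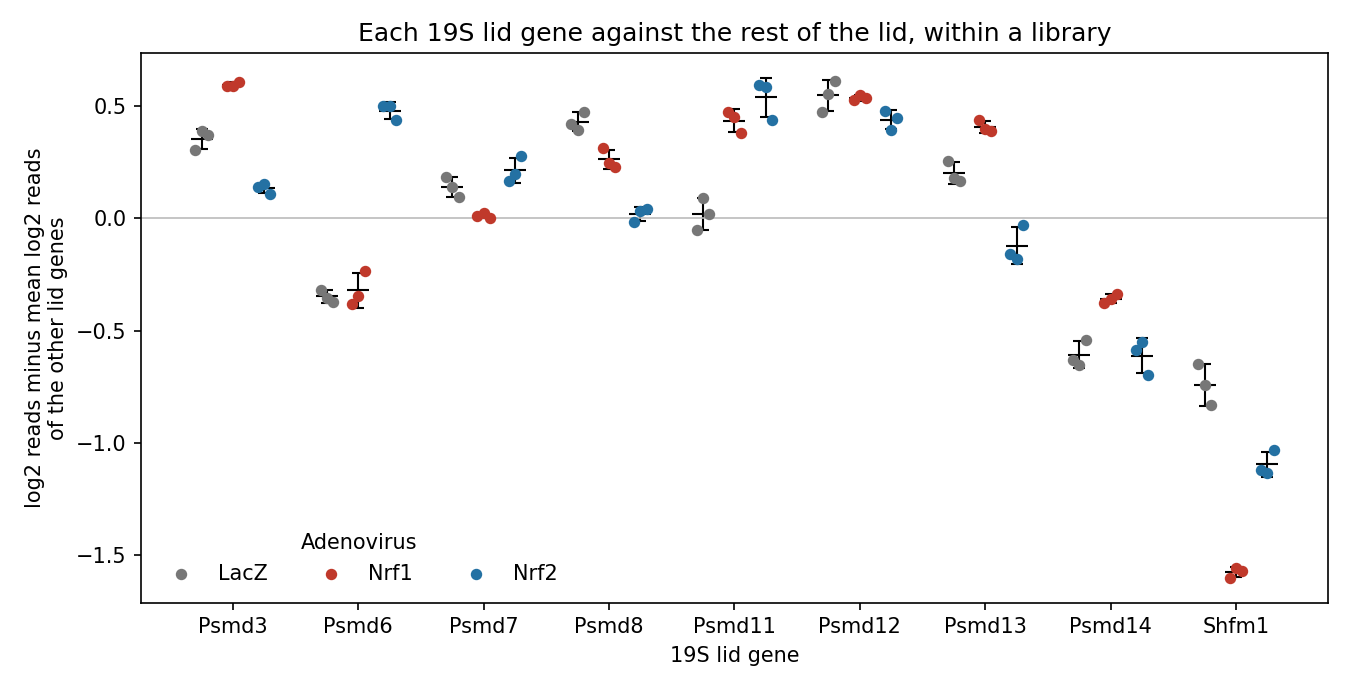
Log2 reads of each 19S lid gene minus the mean log2 reads of the other 8 lid genes, in each library. Points are libraries, marks are group means and bars are the SD over 3 libraries; *Psmd6* is near 0.48 in the Nrf2 libraries and below 0 in the others, and *Shfm1* is lowest with Nrf1, near -1.58.

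Levels of different subunits were compared per kilobase of mouse coding sequence, since no rat annotation was used. *Shfm1*, with 210 coding bases, had the highest level in each group, a length that leaves out untranslated regions although reads were counted over genes. In the table of Nrf1 and LacZ its authors' mean per kilobase was 4355 with LacZ and 5167 with Nrf1. *Psmd6* was lowest in both, at 997 and 2019. The highest level was 4.37 times the lowest with LacZ and 2.56 times with Nrf1. In the table of Nrf2 and LacZ the lowest gene with Nrf2 was *Psmd3*, at 1399, while *Psmd6* reached 2359, next to *Psmd7* at 2427.

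With Nrf1, 8 of the 9 lid genes passed 1.5-fold upwards, beside 11.5% of all genes, and *Shfm1* did not. Promoters of the lid genes were searched for TGACNNNGC, the core of the antioxidant response element that CNC factors bind, on both strands. RefSeq windows of build GRCm38.p6, from 250 bases before to 50 after the start site, were found for 7 of the 9 genes. These are mouse sequences, while the cells were rat. The motif was in 2 of the 7 windows, those of *Psmd12* and *Shfm1* (mouse *Sem1*), and in 12.4% of all 32851 windows. The windows of *Psmd6*, which rose with both factors, and of these 2 genes are shown on the strand of the gene, with the motif, which reads on the opposite strand, in capitals. They lie at chr14:14120896-14121195 (minus strand), chr11:107479278-107479577 (plus strand) and chr6:6578609-6578908 (minus strand).
Psmd6: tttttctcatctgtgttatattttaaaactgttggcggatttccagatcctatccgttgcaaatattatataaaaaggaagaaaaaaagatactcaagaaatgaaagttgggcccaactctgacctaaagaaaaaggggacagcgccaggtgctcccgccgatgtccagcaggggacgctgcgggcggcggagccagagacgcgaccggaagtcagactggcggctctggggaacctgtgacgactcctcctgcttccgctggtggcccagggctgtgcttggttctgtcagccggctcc
Psmd12: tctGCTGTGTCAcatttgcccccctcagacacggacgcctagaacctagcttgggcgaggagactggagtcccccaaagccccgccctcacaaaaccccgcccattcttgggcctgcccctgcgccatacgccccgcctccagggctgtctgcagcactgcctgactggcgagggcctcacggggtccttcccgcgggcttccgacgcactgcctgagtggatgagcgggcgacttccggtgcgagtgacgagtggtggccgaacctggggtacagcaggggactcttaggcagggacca
Sem1: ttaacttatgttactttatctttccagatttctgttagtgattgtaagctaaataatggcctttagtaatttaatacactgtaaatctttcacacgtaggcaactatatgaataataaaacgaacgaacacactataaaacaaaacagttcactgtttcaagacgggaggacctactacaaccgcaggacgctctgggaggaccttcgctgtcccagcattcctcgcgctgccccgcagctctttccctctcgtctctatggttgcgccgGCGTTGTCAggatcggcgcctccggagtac

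In *Psmd12* the motif began at position -247 from the start site and in *Sem1* at position 20, whereas the window of *Psmd6* held none. A match describes these letters and is not a measured binding site, and no relation between motifs and ratios was tested.

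The lid was set beside the other parts of the proteasome. With Nrf1, all 10 genes of the 19S base, all 7 alpha and all 7 beta genes of the 20S core passed 1.5-fold, with median log2 ratios of 1.11, 1.09 and 1.12. With Nrf2, 1 of 10, 3 of 7 and 1 of 7 did, with medians of 0.26, 0.48 and 0.28. The share of all genes past 1.5-fold upwards was 11.5% with Nrf1 and 9.14% with Nrf2, so 1 of 10 and 1 of 7 are near the background. The base ran from 0.11 for the ubiquitin receptor *Psmd4* to 0.60 for the scaffold *Psmd1* with Nrf2, so no base gene reached the ratio of *Psmd6*. All 24 of these genes were lower with Nrf2 than with Nrf1 at an adjusted p under 0.05, beside 30.2% of all genes tested. In the core the highest ratios were those of *Psmb3* with Nrf1, 1.78, and of *Psma5* with Nrf2, 0.82.

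Factors that build, open or assist the proteasome changed less evenly. Of 12 assembly and activator genes, 8 were higher and 1 lower with Nrf1, and 7 were higher and 1 lower with Nrf2. Over all genes tested, 34.7% were called higher and 32.3% lower with Nrf1, and 28.5% higher and 26% lower with Nrf2. The base chaperone *Psmd5* had log2 ratios of 0.79 and 0.77, and the activator subunit *Psme2* had -0.43 (limma adjusted p = 0.0664) and -0.54 (limma adjusted p = 0.0127). *Usp14*, a deubiquitinase that binds the base, rose by 1.08 with Nrf1 and 0.71 with Nrf2, while *Uchl5*, which docks on the same particle, was at 0.24 and 0.13, the latter without passing the test (limma adjusted p = 0.0671).

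Complexes built like the lid from PCI and MPN subunits had lower medians than the lid. The COP9 signalosome, which removes Nedd8 from cullins, had 9 of 9 genes higher with Nrf1, with a median log2 ratio of 0.38, and 4 of 9 with Nrf2, with a median of 0.12. Its MPN metalloprotease *Cops5* had the highest ratios, 0.84 and 0.41. The translation initiation factor eIF3 had medians of 0.11 and 0.09 over 13 genes, with 8 higher and 3 lower with Nrf1 and 6 higher and 1 lower with Nrf2. Over all genes tested, 34.7% were called higher and 32.3% lower with Nrf1, and 28.5% higher and 26% lower with Nrf2. Beside these shares, 4 of 9 and 6 of 13 higher with Nrf2 are not set apart from the background. Nor are the 3 and 1 eIF3 genes called lower.

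**Figure D4:**
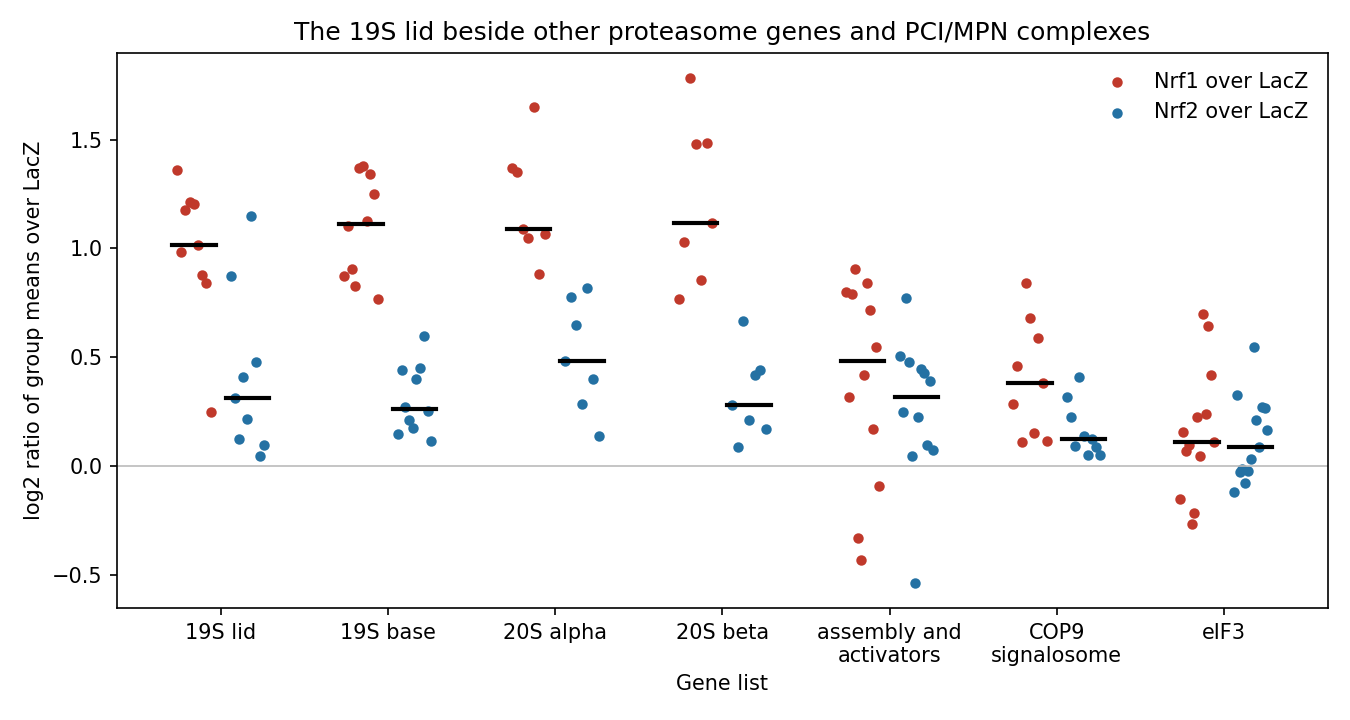
Log2 ratio of the authors' group means over LacZ for the genes of the 19S lid, other proteasome lists and the complexes built from PCI and MPN subunits. Points are genes, bars are list medians, and Nrf1 and Nrf2 share the LacZ libraries; the lid median is 1.02 with Nrf1 and 0.31 with Nrf2, and eIF3 is at 0.11 and 0.09.

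Relatives of single lid subunits were followed too. Of 3 other JAMM deubiquitinases, the enzyme class of Rpn11, 1 was higher with Nrf1 and 2 with Nrf2, and *Stambpl1* had the highest ratios, 0.21 and 0.91. Of the genes of TREX-2 and *Brca2*, whose products bind the *Shfm1* protein, 2 of 4 tested were higher with Nrf1, led by *Mcm3ap* at 0.70, and 1 of 4 with Nrf2. Over all genes tested, 34.7% were called higher with Nrf1 and 28.5% with Nrf2, so counts in lists this short are not set apart from the background. Among 8 Nrf2 target genes, 7 were higher and 1 lower with Nrf1, and 8 were higher with Nrf2, with medians of 0.75 and 2.19.

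The pattern over both factors was then compared with 2142 genes outside the 26S lists that had an authors' mean of at least 1000 on average in both tables with LacZ. The nearest to the lid medians, by Euclidean distance over the 2 log2 ratios, were the bleomycin hydrolase gene *Blmh*, the histidyl-tRNA synthetase gene *Hars*, *Emc1*, the ubiquitin ligase gene *Ube4a* and *Gpc1*, at distances of 0.09 to 0.11. Nearest to *Psmd6* were the autophagy receptor gene *Sqstm1*, *Acta1* and *Hspb7*, and nearest to *Psmd11* were *Aif1l*, *Tgm2* and *Eef1a2*. *Shfm1* was nearest to *Ddb1*, *Eif3j* and *Mrpl17*, and 508 of the 2142 genes lay within a distance of 0.2 of it, against 5 for *Psmd6* and 7 for *Psmd11*.

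Markers of other cell types moved with the groups as well. Without *Fn1*, which was not tested, all 9 fibroblast markers were lower with Nrf1 and 8 of 9 with Nrf2, with medians of -1.91 and -0.99. Leukocyte markers, led by *Lyz2*, summed to 1776, 2566 and 1876 normalized reads with LacZ, 1034, 1050 and 1051 with Nrf1 and 951, 1079 and 1069 with Nrf2, and 9 of 10 were lower with each factor. The other, *Csf1r*, had a log2 ratio of 0.43 with Nrf1 (limma adjusted p = 0.00394) and 0.08 with Nrf2 (limma adjusted p = 0.543). Endothelial markers, led by *Eng*, summed to 4234 to 4300, 2511 to 2572 and 2288 to 2610, with 7 and 6 of 8 lower. Smooth muscle markers, led by *Acta2*, summed to 33108 to 39736, 59510 to 60414 and 47377 to 50690, with 3 higher and 3 lower with each factor. In the paper *Acta2* marks a population of immature cardiomyocytes, so this sum is not specific to smooth muscle. With Nrf1 the log2 ratios ran from -1.01 for *Myh11* to 0.84 for *Acta2*. Of 9 cardiomyocyte markers, led by *Nppa*, 1 was higher and 6 lower with Nrf1, and 5 were higher and 3 lower with Nrf2, with sums of 135338 to 153165, 109674 to 110725 and 145711 to 148963. With 32.3% of all genes called lower and 34.7% higher with Nrf1, and 26% and 28.5% with Nrf2, the smooth muscle counts and the 3 cardiomyocyte markers lower with Nrf2 are not set apart from the background. None of these markers was at 0 in every library, and their part in the changes of the lid genes was not tested.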

How the data were processed

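RNA of 9 NRVM libraries was quantified, 3 each with LacZ, Nrf1 and Nrf2. Per the methods and labels, the authors aligned reads to Rnor 6.0 with HISAT2 2.0.4, removed duplicates with SAMtools 0.1.18 and counted genes with featureCounts 1.6.0. The signal deposited by the authors is the mean over a group of read counts divided by size factors, made separately for each of 3 pairs of groups. The fold changes, p-values and adjusted p-values of the authors' own comparisons were not used, and 0 columns of single samples were left unused.

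Whole reads per library were solved from the means, which keep 10 or 15 digits, with a largest relative residual of 1.45e-09. The 18 size factors so obtained differed from median-of-ratios factors of the recovered reads by at most 0.00787%. *Fn1* had several solutions and was left out. Between libraries of a group, chi-square per gene was 1.48 to 5.00, above sampling noise. limma 3.58.1 (R 4.3.3, trend) was fitted per pair on log2(normalized reads + 1), for genes with an average mean of at least 10, and p-values were adjusted over all genes tested. Both steps were tested on simulated data. The limma step missed its first bar for power, with every missed gene at a mean under 100, and the bar was then set on genes with a mean of at least 100. Shares of all genes called include genes with means from 10 to 100, where real changes can be missed. Python 3.11.15, numpy 2.4.6, pandas 2.3.3 and matplotlib 3.10.9 were used.

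Named genes were the lid genes, *Nfe2l2*, extreme members of each list and genes nearest in pattern. Members and lists were chosen with earlier results of these data known.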

Additional observations from a re-analysis of the deposited data

How the results depend on the processing

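No paired analysis was possible because the recovered libraries carry no replicate numbers. The counts of lid genes past 1.5-fold, 8 with Nrf1, 2 with Nrf2 and 5 for Nrf2 below Nrf1, were the same under both other scalings, with a pseudocount of 1 and, in alternatives chosen after seeing the data, with each library left out. At a cutoff of 2-fold they were 5, 1 and 1, and at the lower cutoff tried they were 8, 4 and 7. Without *Shfm1* the median log2 ratio of the lid was 1.10 with Nrf1 and -0.74 for Nrf2 over Nrf1. With the same summed mean in each group the median with Nrf2 was 0.24, and *Psmd8*, which had not passed the test, changed sign to -0.030. With no filter on low values the share of all genes past 1.5-fold was 15.6% with Nrf2 and 8.72% for Nrf2 below Nrf1. The causes of these shifts were not tested. Lid genes with an adjusted p under 0.05 stayed at 9 with Nrf1 and 8 for Nrf2 below Nrf1 under each alternative, and numbered 6 to 8 with Nrf2, where *Psmd13* and *Shfm1* crossed the threshold. Of 225 alternatives for single lid genes, 217 kept direction and call, 6 lost a call, 1 gained one and 1 reversed. With 3 libraries per group, differences of about 0.1 on the log2 scale were near the limit of the test.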
